A study of Arabidopsis thaliana with 59 samples.

Results

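The 20 arrays whose titles end in number 3 were set against the 20 arrays whose titles end in number 1, in rosette leaves of Arabidopsis thaliana. Each number 3 array was paired with the number 1 array of the same accession and watering level, which gave 20 pairs (10 wet and 10 dry) out of 59 arrays in all. The pairs were taken from the titles, without use of any measured value. The comparison itself was chosen with clock gene levels of these data known. The clock results below, with their p-values and score, therefore describe values already seen and are no independent finding. The 19 arrays ending in number 2 were set beside them; KNOX-18 dry had no number 2. The study crossed 10 spring annual accessions (Col, Ler, SQ-8, NFA-10, KNOX-18, HR-5, CIBC-17, Ts-1, Bur-0 and Ws-2) with 2 watering levels and named 3 biological replicates for each combination. Plants stood singly in pots holding about 150 ml of porous ceramic medium, in a chamber lit for 10 h a day with 330 µmol m-2 s-1 of light, at 23 C by day, 18 C by night and a relative humidity of 60%. Pots of the wet treatment kept about 90% of their water, and dry pots were brought down day by day to about 50% by day 5, each being weighed before dawn. All 59 arrays thus came from leaves grown under short days. The labels name no transgene or mutant, although Ler (Landsberg erecta) is known to carry the induced erecta mutation. The groups differed in accession, in water and in the number. The labels used here do not say when leaves of each number were harvested, hybridised or scanned. Number therefore cannot be told apart from harvest time or from any other step that went with it, and the time of day was not tested.

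Much of a plant leaf's transcription follows the day. In Arabidopsis the clock runs as a loop in which the dawn-phased transcription factors CCA1 and LHY hold back evening genes, while the pseudo-response regulators and the evening complex, which come in sequence through the day and into the night, hold back CCA1 and LHY in turn. Clock outputs and light together time photosynthesis, starch turnover, pigment synthesis, nutrient assimilation and elongation growth. Leaf sugars fall when light is withheld, and a set of genes known as dark-inducible responds to that fall.

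Values were log2 levels of 20728 loci, and array medians lay between 5.50 and 5.62. In number 3 the median of array medians was 5.54, against 5.56 in number 1. Differences were fitted with limma, with the accession and watering group as a block, and a locus was called when its Benjamini-Hochberg adjusted p-value, across the 20728 loci, was under 0.05. Such p-values measure the spread over the pairs of accession and watering, not over repeated harvests, since all arrays of a number may share a harvest or batch. In whole leaves, fewer cells of a type and less RNA per cell cannot be told apart. The arrays Ler wet 3 and Col wet 3 stood apart from the other wet number 3 arrays by their evening clock genes, whose mean log2 level was 6.47 and 5.88 there, against 4.75 to 5.24 on the other wet and 5.37 to 6.46 on the dry number 3 arrays. The labels give Col wet 3 the stock number of Ws-2; it was kept as Col, as its title and ecotype have it, and at 23 loci where the other Col arrays and the Ws-2 arrays differ without overlap it was nearer to Col at 21. Main counts are given with and without both pairs. Leaf markers were near the top of the scale, with a mean log2 level of 12.55 for the photosystem list in number 1. Of 8 floral markers, 0 were called, and their mean level stayed between 3.83 and 4.32 in number 1 and between 3.84 and 4.04 in number 3. Of 8 root markers 1 was called, of 8 guard cell markers 1, and of 10 vascular markers 2, against 26.7% of all loci. Means were under 5 for 8 of the floral, 7 of the root and 6 of the guard cell markers. Such dim loci may be at background, so few calls there cannot show that the make-up of the tissue was the same. Of 8 epidermis and trichome markers 5 were lower in number 3, with list means from 6.32 to 7.09 against 6.54 to 7.55 in number 1, and their part in the results below was not tested.

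Between number 1 and number 3, 5527 loci were called, which is 26.7% of those tested. In number 3, 2394 loci were higher (11.5%) and 3133 were lower (15.1%). The counts of list members below are to be read beside these shares. With array medians centred the balance turned, to 2904 higher and 2774 lower, so the split between directions depends on the scaling. Without the Ler and Col wet pairs, an alternative chosen after seeing the data, 2114 were higher and 2739 lower. Most differences were small, with a median size of 0.36 on the log2 scale among called loci. A log2 difference of 1 or more was reached by 307 higher loci (1.48%) and 193 lower loci (0.931%). In 535 loci (2.58%) the call came with 1 sign in all 20 pairs. For 41 loci (0.198%) no number 3 array overlapped any number 1 array, with 23 loci wholly above (0.111%) and 18 wholly below (0.0868%). Clock genes stood among these 41: CCA1, LHY and LNK3 on the lower side, and PRR5, GI and GRP7 on the higher side.

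The morning clock genes were lower in number 3 and the evening clock genes were higher. Of 12 measured morning clock members, 8 fell and 1 rose, with a list median of -0.87 on the log2 scale. Of 6 measured afternoon and evening members, 6 rose, with a median of 0.84. Over all loci the median was -0.0047. Leaving out the Ler and Col wet pairs gave the same counts for both lists.

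CCA1 (AT2G46830), a MYB transcription factor at the centre of the dawn phase, ran from 8.41 to 9.95 in number 1 with a median log2 level of 9.32. In number 3 it ran from 4.24 to 6.90, with a median of 5.83. Every number 3 array lay below every number 1 array, and the difference fell in 20 of 20 pairs. CCA1 fell by 3.39 ± 0.13 (SE, 20 pairs), a 10.5-fold change (limma, adjusted p = 1.66e-13). LHY (AT1G01060), its close relative and partner, had a median of 10.67 in number 1, between 10.29 and 11.45. In number 3 its median was 7.04, between 5.85 and 8.69. The ranges again did not meet, and LHY fell by 3.70 ± 0.14, or 13-fold (limma, adjusted p = 1.43e-13). Both genes fell in wet and in dry plants: CCA1 had differences of -3.43 in wet and -3.36 in dry plants, and LHY had -3.55 and -3.86. The dry minus wet difference of these falls missed the threshold for each gene (limma, adjusted p = 0.926 for CCA1 and 0.621 for LHY).

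The LNK genes, which code for co-activators that act with RVE8 in the morning, fell as a group. LNK3 (AT3G12320) had levels of 9.46 to 10.57 in number 1, median 10.15. In number 3 it had 7.11 to 9.17, median 8.49. No array of number 3 reached those of number 1, and LNK3 fell by 1.67 ± 0.11 (limma, adjusted p = 2.59e-10). LNK2 fell by 1.38, LNK1 by 0.97 and LNK4 by 0.78, each in 20 of 20 pairs but with ranges that overlapped.

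Among the REVEILLE genes, MYB-like relatives of CCA1 and LHY, the members did not move together. RVE8, an activator of evening genes, fell by 0.77 ± 0.06 in 20 of 20 pairs (limma, adjusted p = 6.9e-09). RVE1, which links the clock to auxin, had medians of 5.90 in number 1 and 4.4 in number 3, and overlapping ranges. It fell by 1.57 ± 0.24 in 19 of 20 pairs, by 0.89 in wet plants and by 2.25 in dry plants. That gap between wet and dry missed the threshold (limma, adjusted p = 0.0533). RVE4 differed by 0.09 (adjusted p = 0.699), RVE2 by 0.03 (0.572) and the listed locus AT5G52660 by 0.07 (0.354), none of them past the threshold over all 20 pairs. RVE4 had opposite signs by watering: it rose by 0.45 in wet plants (limma, adjusted p = 0.0466) and had -0.28 in dry plants (adjusted p = 0.296), and the difference between these shifts missed the threshold (adjusted p = 0.0787).

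PRR7, a pseudo-response regulator that follows CCA1 in the morning and represses it, was the exception on the morning list. Its median was 7.47 in number 1 and 8.22 in number 3, with overlap. It rose by 0.95 ± 0.15 in 19 of 20 pairs (limma, adjusted p = 6.04e-05).

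**Figure D1:**
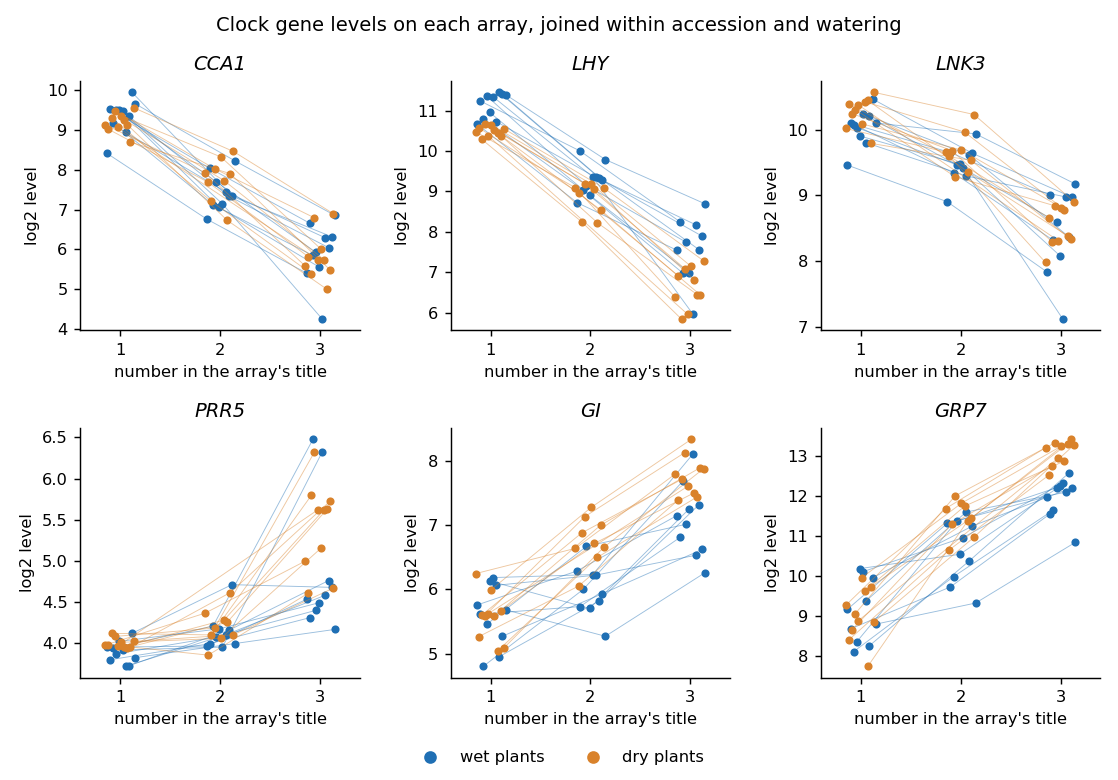
Log2 level (vertical axis) of 6 clock genes on each array against the number in the array's title (horizontal axis), with points for wet plants in blue and dry plants in orange, and lines joining the arrays of one accession and watering level. CCA1, LHY and LNK3 drop from number 1 to number 3 and PRR5, GI and GRP7 climb, with medians of 9.32 and 5.83 for CCA1 and of 8.98 and 12.56 for GRP7.

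GI (AT1G22770), a large nuclear protein that peaks late in the day and joins the clock to flowering, showed the largest rise among the evening clock genes. It had 4.80 to 6.25 in number 1, median 5.61. In number 3 it had 6.26 to 8.33, median 7.47. The ranges lay next to each other without overlap, and GI rose by 1.84 ± 0.14 (limma, adjusted p = 5.95e-09). PRR5 (AT5G24470), which represses CCA1 and LHY from the afternoon on, was dim in number 1, from 3.71 to 4.11 with a median of 3.95. In number 3 it spread from 4.16 to 6.48, median 4.88. It rose by 1.2 ± 0.15 in 20 of 20 pairs without overlap (limma, adjusted p = 3.61e-06).

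TOC1, the pseudo-response regulator of the evening, rose by 0.83 ± 0.14 in 19 of 20 pairs (limma, adjusted p = 0.000104). Its relative PRR3 rose by 0.78 ± 0.16, from a median of 4.33 to 4.93. PRR3 rose by 1.21 in dry plants, while its wet value of 0.35 missed the threshold (adjusted p = 0.201). ELF3, the scaffold of the evening complex, rose by 0.84 ± 0.11 in 20 of 20 pairs. ELF4, another subunit of that complex, rose by 0.21 ± 0.05, a small shift at the dim end of the scale with medians of 3.95 and 4.15. Its wet value of 0.12 alone was not past the threshold (adjusted p = 0.141). Without the Ler and Col wet pairs, 3 of the 6 evening members were called in wet plants, against 4 with them; of all loci 24% were called in wet plants.

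Of 11 further clock factors 4 rose (36.36%) and 0 fell, where 11.5% of all loci rose and 15.1% fell. Without the Ler and Col wet pairs 2 rose and 0 fell, and of all 20728 loci 2114 rose and 2739 fell. In dry plants 1 was higher and 1 lower, against 6.82% and 8.21% of all loci. CHE, a TCP factor that binds the CCA1 promoter, rose by 1.01 ± 0.11 in 19 of 20 pairs, from a median of 7.71 to 8.78. SKIP, a splicing factor, rose by 0.25 and LWD1, an activator of clock genes, by 0.26. LKP2, a relative of the photoreceptor ZTL, had 0.15 (limma, adjusted p = 0.0424), a call that was lost in 12 of the 20 fits that left out 1 pair. ZTL itself, which takes part in TOC1 breakdown, had -0.11 and was not called.

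**Figure D2:**
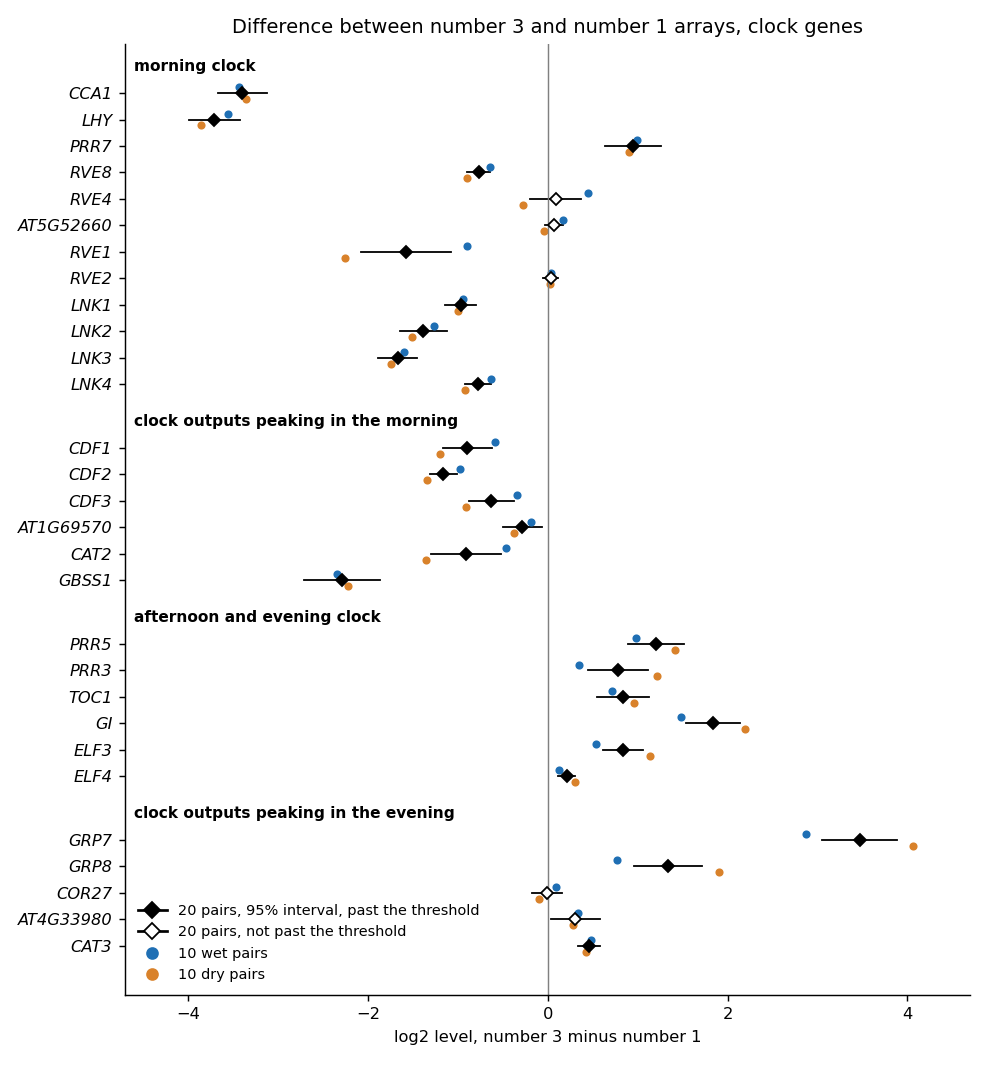
Number 3 minus number 1 in log2 level (horizontal axis) for each measured member of 4 clock lists, with black diamonds and 95% intervals for the 20 pairs (filled where the adjusted p was under 0.05) and dots for the means of 10 wet and 10 dry pairs. Morning members and outputs lie mostly left of 0 and evening members right of it, with PRR7 at 0.95 on the right.

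The output genes of the clock split in the same 2 directions. Of 6 outputs with a morning peak 6 fell, with a median of -0.90, and of 5 outputs with an evening peak 3 rose, with a median of 0.46. The counts were 5 lower and 4 higher when the Ler and Col wet pairs were left out. GRP7 (AT2G21660), an RNA-binding protein that damps its own transcript in the evening, had 7.75 to 10.20 in number 1, median 8.98. In number 3 it had 10.85 to 13.42, median 12.56. The ranges were apart, and GRP7 rose by 3.47 ± 0.20, or 11.1-fold (limma, adjusted p = 6.66e-11). Its paralogue GRP8, which GRP7 also controls, rose by 1.34 ± 0.18 in 19 of 20 pairs. CAT3, the evening-phased catalase, rose by 0.46, while CAT2, the catalase of photorespiration, fell by 0.91 in 18 of 20 pairs. COR27, a small evening protein of cold and clock, had -0.01 (adjusted p = 0.964). The locus AT4G33980, on the same list, had 0.31 (adjusted p = 0.0892). Its difference was 0.17 without the Ler and Col wet pairs, and was then past the threshold (adjusted p = 0.0202).

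GBSS1, granule-bound starch synthase and a direct target of CCA1 and LHY, had a median of 10.17 in number 1 and 7.80 in number 3. It fell by 2.28 ± 0.20 in 20 of 20 pairs (limma, adjusted p = 3.94e-08), although the ranges overlapped. The CDF genes, DOF repressors of CONSTANS that GI and its partners remove later in the day, also fell. CDF2 fell by 1.16 in 20 of 20 pairs, CDF1 by 0.89 and CDF3 by 0.62. AT1G69570, on the same list, fell by 0.28 (limma, adjusted p = 0.0459), a call lost in 12 of 20 fits without 1 pair and also without the Ler and Col wet pairs.

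To place the arrays on 1 scale, the mean of the 6 evening members was taken from the mean of the 12 morning members on each array. This score, on the log2 scale, ran from 2.80 to 3.92 in number 1 with a median of 3.54. In number 2 it ran from 2.32 to 3.34 (median 2.73), and in number 3 from 0.448 to 2.62 (median 1.49). No number 3 array reached the lowest number 1 array, and number 2 lay between the others in 19 of 19 groups. The score was lower in number 3 in 20 of 20 pairs, by 0.978 in NFA-10 wet at the least and by 2.96 in Ler wet at the most. Within number 1 the medians were 3.49 in wet and 3.58 in dry plants. Within number 3 they were 1.80 in wet and 1.12 in dry plants, with ranges of 0.448 to 2.62 and 0.809 to 1.54. The score is a description of the list members and was not tested.

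**Figure D3:**
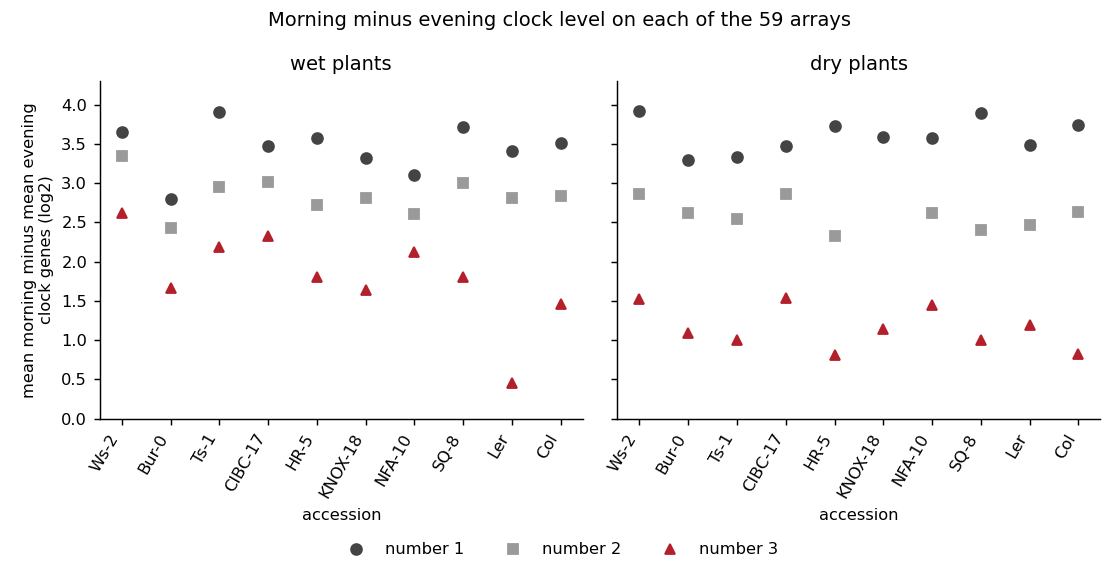
Mean log2 level of 12 morning clock genes minus that of 6 evening clock genes (vertical axis) on each of the 59 arrays, by accession (horizontal axis), for wet plants on the left and dry plants on the right; circles, squares and triangles stand for numbers 1, 2 and 3. Number 3 is the lowest and number 1 the highest symbol in each group, and Ler wet 3 lies at 0.448.

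The first principal component of the deviations of arrays from their group means, over all loci, held 33.9% of that variation, and the second held 11.9%. All 20 number 3 arrays lay above every number 1 array on the first component. Number 2 arrays, at -8.44 to 16.93, lay mostly between number 1, at -44.87 to -10.30, and number 3, at 10.18 to 53.32. Ler wet 3 held the highest of these values.

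CONSTANS-like and other B-box genes, zinc finger regulators of light response and flowering, moved in both directions, with 3 of 14 higher and 7 lower. Those shares were 21.43% and 50%, against 11.5% and 15.1% of all loci. BBX18 (AT2G21320) had 7.16 to 9.12 in number 1, median 8.35, and 5.17 to 6.52 in number 3, median 5.69. It fell by 2.54 ± 0.11 without overlap of the ranges (limma, adjusted p = 8.39e-13). BBX25, an antagonist of HY5, fell by 2.04 ± 0.09, also without overlap, from a median of 9.43 to 7.32. COL2, a relative of CONSTANS, fell by 2.59 ± 0.25, with a wide spread in number 1 from 6.02 to 9.99. BBX19 fell by 1.31, and BBX22, which works with HY5, rose by 1.38 ± 0.13 in 20 of 20 pairs. CO itself (-0.01) and its target FT (-0.04) were not called.

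Of 22 photoreceptor and light signalling genes 6 were higher (27.27%) and 10 lower (45.45%), against 11.5% and 15.1% of all loci. PHYA, the far-red receptor that builds up in darkness, rose by 1.07 ± 0.11 in 19 of 20 pairs. HFR1, a bHLH factor of shade response, rose by 1.46 ± 0.19. PHOT1, a blue-light receptor of phototropism, rose by 0.81, while its relative PHOT2 fell by 0.50. HY5, the bZIP factor at the centre of light-driven development, fell by 0.39 in 20 of 20 pairs. Its homologue HYH went from a median of 5.97 to 3.78 and fell by 2.21 ± 0.15 (limma, adjusted p = 9.12e-10). ELIP1, a thylakoid protein that strong light induces, fell by 2.16 ± 0.28, from a median of 7.30 to 5.23. PHYB (0.12) and CRY1 (0.09) were not called.

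Genes of low sugar and darkness were higher in number 3. Of 17 measured members of the list of genes induced by sugar starvation and darkness, 15 rose and 0 fell, with a list median of 1.21. The counts were again 15 and 0 when the Ler and Col wet pairs were left out. SEN1 (AT4G35770), a marker of dark-induced senescence and the locus with the largest rise among calls with 1 sign in all pairs, had 4.42 to 11.80 in number 1, median 6.58, and 9.98 to 13.70 in number 3, median 12.19. It rose by 4.92 ± 0.42, or 30.4-fold, in 20 of 20 pairs (limma, adjusted p = 1.9e-08), though some number 1 arrays were within the range of number 3. ASN1, asparagine synthetase of darkened leaves, rose by 4.22 ± 0.40, from a median of 4.74 to 9.65. DRM1 (AT1G28330), a dormancy-associated gene, had 4.56 to 8.25 in number 1 and 8.52 to 10.86 in number 3. Its ranges did not overlap, and it rose by 3.29 ± 0.19 (limma, adjusted p = 9.86e-11). DIN10, a raffinose synthase-like dark-inducible gene, rose by 3.27 ± 0.29. STP1, a monosaccharide importer, rose by 2.22 ± 0.17 and BGAL4, a beta-galactosidase, by 2.86.

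Genes of branched-chain amino acid breakdown on this list rose as well: BCAT2 by 1.08, MCCA by 1.36 and IVD by 1.2. So did glutamate dehydrogenases, with GDH2 at 1.21 and GDH1 at 0.74. Among the class II trehalose phosphate synthase genes TPS11 rose by 1.70, TPS8 by 1.13, TPS10 by 0.81 and TPS9 by 0.59. DIN2 (0.04) and DIN11 (-0.17) were not called. In wet plants alone 15 members were called, with a median of 1.94, and in dry plants 8, with a median of 0.80. All loci were also called more often in wet plants, at 24% against 15%. Of the members, 2 passed the threshold for a difference between those wet and dry shifts, as did 3.9% of all loci. TPS8 rose by 1.94 in wet plants against a dry value of 0.33, and TPS11 rose by 2.59 against 0.80.

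Several loci outside the lists had differences of the same size. AT2G33830, DRM2 (a dormancy-associated gene), had 4.1 to 8.80 in number 1 and 9.67 to 12.29 in number 3. It rose by 4.64 ± 0.20, or 24.9-fold, without overlap (limma, adjusted p = 8.39e-13). MEE14 rose by 3.82 ± 0.23, WCRKC1, a thioredoxin-like protein, by 3.39 ± 0.17, and the locus AT1G56300 by 3.76 ± 0.26, all without overlap. AT3G15450 rose by 4.16, AT4G32340 by 3.32 and RbcX1, a Rubisco assembly chaperone, by 3.09, with ranges that overlapped. On the lower side CYP711A1, an enzyme of strigolactone synthesis, went from a median of 8.35 to 5.98 without overlap and fell by 2.38 ± 0.14. AT5G11930 fell by 2.26. AT1G73600 fell by 2.25, but its values and those of AT1G73602 differ by at most 0.00195 on any array, so that these loci cannot be told apart.

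Starch synthesis genes were more often lower than higher, and starch breakdown genes moved in both directions. Of 13 starch synthesis genes 7 fell and 2 rose, with a median of -0.25. APL3, a large subunit of ADP-glucose pyrophosphorylase that responds to sugar, fell by 1.86 ± 0.22. The small subunit APS1 fell by 0.69, the branching enzyme SBE2.2 by 0.72, and the soluble starch synthases SS1, SS2 and SS3 by 0.65, 0.55 and 0.57. SS4, which starts granules, rose by 0.79 ± 0.10 in 20 of 20 pairs. Of 16 starch breakdown genes 6 rose (37.5%) and 3 fell (18.75%), against 11.5% and 15.1% of all loci. In wet plants 5 were higher and 3 lower, with a median of 0.06. In dry plants 8 were higher and 3 lower, with a median of 0.57. Of all loci 10.4% were higher and 13.5% lower in wet plants, and 6.82% and 8.21% in dry plants. The alpha-amylase AMY3 rose by 1.90 ± 0.14 and the disproportionating enzyme DPE1 by 1.71 ± 0.12, each in 20 of 20 pairs. The plastid phosphorylase PHS1 rose by 1.41, the glucan water dikinase SEX1 by 1.2 and BAM4 by 1.18. BAM1, a beta-amylase of stress and guard cells, fell by 0.81, BAM3, the main beta-amylase of the night, by 0.50 and the phosphatase LSF2 by 0.84.

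Genes listed under PIF and elongation growth were mostly higher, and control of them by PIF factors was not tested. Of 17 members of the list of PIF and elongation genes 12 rose and 1 fell, with a median of 0.64. The same counts were obtained when the Ler and Col wet pairs were left out. ST2A, a sulfotransferase of hydroxyjasmonate, rose by 2.64 ± 0.26, from a median of 5.74 to 8.97. IAA29, an auxin response repressor, rose by 1.95 ± 0.23, and the bHLH factor PIF4 itself by 1.28 ± 0.16, from a median of 6.85 to 8.03. The cell wall gene EXPA8 rose by 1.08, IAA19 by 0.95 and the brassinosteroid enzymes BR6OX2 and CPD by 0.86 and 0.59. The gibberellin enzyme GA20OX1 fell by 0.35, and PIF5 (-0.09) was not called. Of 11 auxin response genes 8 rose and 1 fell: GH3.5, an auxin-conjugating enzyme, rose by 1.42 ± 0.14, GH3.3 by 1.19 and IAA7 by 0.91, while AXR3 fell by 0.98.

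**Figure D4:**
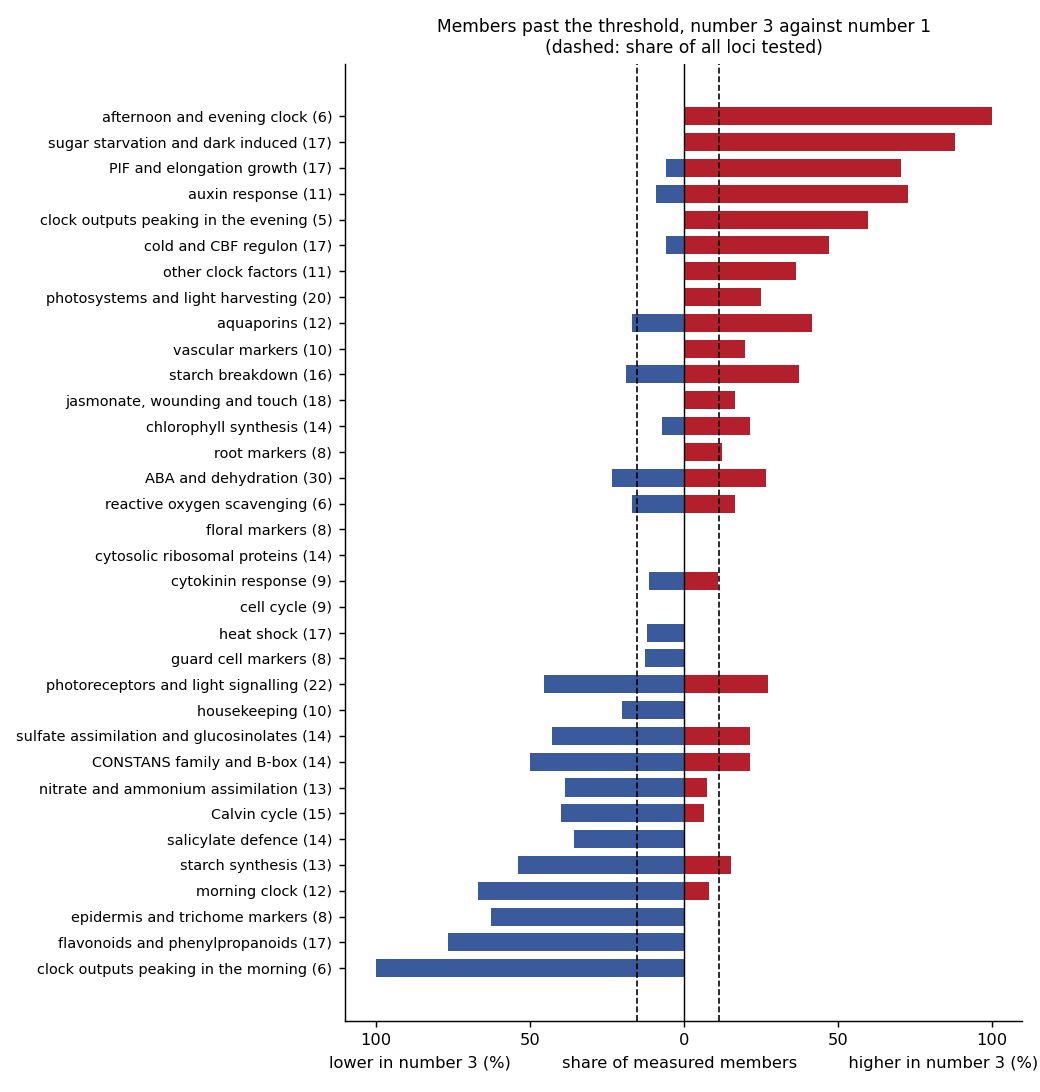
Share of measured members past the threshold in number 3 against number 1 (horizontal axis, percent; lower to the left in blue, higher to the right in red) for each gene list, with the number of measured members in parentheses. Dashed lines give the shares of all 20728 loci, 15.1% lower and 11.5% higher; sugar starvation genes reach 88.2% on the higher side and flavonoid genes 76.5% on the lower side.

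Flavonoid and phenylpropanoid genes were lower in number 3. Of 17 measured members 13 fell and 0 rose, with a median of -0.63 (12 and 0 without the Ler and Col wet pairs). CHS, chalcone synthase at the entry to the pathway, had 6.87 to 10.40 in number 1, median 9.26, and 5.58 to 7.37 in number 3, median 6.00. It fell by 3.07 ± 0.19 in 20 of 20 pairs (limma, adjusted p = 1.61e-10). F3H, a hydroxylase further down the pathway, had 5.73 to 8.52 in number 1 and 4.92 to 5.67 in number 3. Its ranges did not overlap, and it fell by 2.33 ± 0.14. UGT78D2, a flavonoid glucosyltransferase, fell by 1.06 ± 0.06, also without overlap. DFR, of the anthocyanin branch, fell by 1.47 and the MYB activator PAP1 by 1.36. GSTF12, needed to bring anthocyanin to the vacuole and not on the list, had a median of 7.07 in number 1 and 3.77 in number 3. It fell by 3.26 ± 0.26. In the general phenylpropanoid steps PAL1 fell by 1.04, PAL2 by 0.68, C4H by 0.63 and 4CL1 by 1.0. The flavonol regulators MYB12 (0.01), MYB11 (-0.04) and MYB111 (-0.10) were not called.

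Among 17 genes of cold response and the CBF regulon 8 rose and 1 fell (10 and 1 without the Ler and Col wet pairs), with a median of 0.29. Of all loci 11.5% rose and 15.1% fell. CBF1, an AP2 factor that opens the cold response and is gated by the clock, had a median of 6.99 in number 1 and 9.38 in number 3. It rose by 2.11 ± 0.12 in 20 of 20 pairs (limma, adjusted p = 6.09e-11). Its neighbours CBF3 and CBF2 rose by 1.63 ± 0.14 and 1.07 ± 0.10; the CBF genes are close in sequence, and how far their probes share signal was not tested. COR413-PM1, a membrane protein, had 8.36 to 9.46 in number 1 and 9.65 to 11.26 in number 3. It rose by 1.46 ± 0.11 without overlap. COR15B rose by 2.2, COR414-TM1 by 1.51, LTI78 by 1.06 and COR47 by 0.96, while COR15A (-0.02) was not called. The upstream factor ICE1 fell by 0.23.

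Genes of nutrient assimilation were lower in part, where 11.5% of all loci rose and 15.1% fell. Of 13 nitrate and ammonium genes 5 fell and 1 rose: the nitrate reductases NIA2 and NIA1 fell by 1.48 ± 0.22 and 0.77, the nitrate transceptor NRT1.1 by 1.06, the leaf glutamate synthase GLU1 by 0.82 and the ammonium transporter AMT1;1 by 0.74. GLT1, the NADH-dependent glutamate synthase, rose by 0.93. Of 14 sulfate and glucosinolate genes 6 fell and 3 rose. In wet plants 5 were lower and 3 higher, and in dry plants 2 were lower and 1 higher. Of all loci 24% were called in wet and 15% in dry plants. The sulfate-reducing enzymes APR1, APR3 and APR2 fell by 0.93, 0.90 and 0.66. The aliphatic glucosinolate genes MYB28 and CYP83A1 fell by 0.83 and 0.97. On the indole side CYP79B2, CYP79B3 and CYP83B1 rose by 1.04, 1.19 and 0.64.

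Among photosynthesis genes the differences were small. Of 20 nuclear photosystem and light-harvesting genes 5 rose and 0 fell, with a median of 0.18 and LHCB4.1 highest among the calls at 0.36 ± 0.09. That count was 3 without the Bur-0 wet pair, 8 without the Col dry pair and 9 with array medians centred. In wet plants 13 were called and in dry plants 0, with medians of 0.37 and 0.01. Of all loci 24% were called in wet and 15% in dry plants. The wet count was 9 without the Bur-0 wet pair and 18 without the HR-5 wet pair. The difference between wet and dry passed the threshold for 1 of the 20 (PSBO1, with 0.40 in wet and -0.03 in dry plants). For all loci that share was 3.9%. Of 14 chlorophyll synthesis genes 3 rose and 1 fell, where 11.5% of all loci rose and 15.1% fell. The call of CHLD, on this list, was lost in 13 of 20 fits without 1 pair. PORB, a protochlorophyllide oxidoreductase, rose by 1.70 ± 0.23 and PORA by 0.78, while CHLG, which adds the phytol tail, fell by 0.51. Of 15 Calvin cycle genes 6 fell and 1 rose: the aldolases FBA1 and FBA2 fell by 0.64 and 0.41, SBPASE by 0.57, and the regulator CP12-1 rose by 0.42.

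Hormone and stress lists were mixed. Of all loci 11.5% were higher and 15.1% lower, and the heat shock and cytokinin lists were called no more often than that. Of 30 abscisic acid and dehydration genes 8 rose and 7 fell (4 lower without the Bur-0 dry pair). DREB2A, a dehydration-response factor, rose by 1.37 ± 0.21 and LTI30, a dehydrin, by 1.21, while LTP3, a lipid transfer protein, fell by 2.53 ± 0.45. HAB1, a phosphatase that turns abscisic acid signalling off, fell by 1.04 in 20 of 20 pairs. Of 14 salicylate genes 5 fell and 0 rose (3 lower without the Bur-0 wet pair): ACD6 fell by 1.75 ± 0.17 and PAD4 by 0.77, while PR1 (0.48) was not called. Of 18 jasmonate, wounding and touch genes 3 rose and 0 fell, led by JAZ9 at 0.61. Of 17 heat shock genes 2 fell (1 without the Bur-0 wet pair and 4 without the SQ-8 dry pair), HSP70 by 1.08 and MBF1C by 0.67. Of 9 cytokinin response genes ARR5 rose by 0.84 and ARR16 fell by 0.50.

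Of 12 aquaporin genes 5 rose and 2 fell, where 11.5% of all loci rose and 15.1% fell. In wet plants 6 were higher and 1 lower (median 0.35), against 10.4% and 13.5% of all loci. In dry plants 5 were higher and 5 lower (median -0.09), against 6.82% and 8.21%. For 3 members the shift was lower in dry than in wet plants past the threshold, as it was for 2.01% of all loci. The tonoplast channels TIP2;1 and TIP1;2 rose by 1.38 ± 0.20 and 1.2 ± 0.16, and PIP1;4, of the plasma membrane, fell by 0.73. In the 6 scavenging genes CAT1 rose by 0.92 and APX1 fell by 0.45, where 11.5% of all loci rose and 15.1% fell. Of 9 cell cycle genes and 14 cytosolic ribosomal protein genes 0 were called by limma over the 20 pairs, with list medians of 0.01 and -0.03. The ribosomal genes had opposite signs by watering: 5 were lower in wet plants (median -0.20) and 3 were higher in dry plants (median 0.13). Of all loci 13.5% were lower in wet plants and 6.82% higher in dry plants. Without the Ler and Col wet pairs 2 ribosomal genes were lower in wet plants (median -0.25). RPS6A and RPL18 passed the threshold for the difference between these shifts (limma, adjusted p = 0.00831 and 0.0362). RPS6A fell by 0.30 in wet plants and rose by 0.44 in dry plants, and RPL18 fell by 0.41 in wet plants and had 0.13 in dry plants. Of 10 reference genes, GAPC1 fell by 0.33 and YLS8 by 0.18, and ACT2 (0.07) and UBQ10 (0.00) were not called. Among the markers of leaf cell types, KCS6, a wax enzyme of the epidermis, fell by 0.89 and the epidermal factor PDF2 by 0.57. The guard cell kinase gene OST1 fell by 0.55, and SWEET12, a sugar exporter of the phloem, rose by 1.09.

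Set against number 1, the number 2 arrays gave 3981 called loci (19.2%), 1740 higher (8.39%) and 2241 lower (10.8%), in the fit to all 59 arrays. With array medians centred that split was 2273 higher and 1917 lower. Number 3 against number 2 gave 1083 (5.22%), 502 higher (2.42%) and 581 lower (2.8%). These comparisons share arrays with each other and with number 3 against number 1, so their values stand side by side as a description. CCA1 had a median of 7.68 in number 2, and its differences were -1.70 from number 1 to number 2 and -1.70 from number 2 to number 3. LHY had -1.77 and -1.93, and GI had 0.78 and 1.06. Over both watering levels these genes changed in each step, and their steps within wet and within dry plants are given below.

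Other genes had unequal steps over both watering levels. HYH had -1.77 between numbers 1 and 2, and -0.43 between numbers 2 and 3 (limma, adjusted p = 0.0782). CHS had -2.42 and -0.65, and ELIP1 had -1.84 and -0.33. IAA29 had 2.08 and -0.13, and PIF4 had 1.12 and 0.16. PRR5 had its larger value in the later step, with 0.23 between numbers 1 and 2 (adjusted p = 0.23) and 0.97 between numbers 2 and 3. CDF3 had -0.07 and then -0.56.

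Within wet and within dry plants, over the 10 wet and 9 dry groups that have all 3 numbers, these steps were not alike; the differences between wet and dry steps were not tested. The CHS mean moved by -3.36 and then by -0.27 in wet plants, but by -1.41 and -1.11 in dry plants, where the steps were nearly equal. CDF3 had 0.31 and then -0.65 in wet plants, and -0.47 and -0.44 in dry plants. HYH had -2.36 and -0.31 in wet and -1.19 and -0.65 in dry plants, and PIF4 had 1.75 and 0.13 in wet and 0.47 and 0.25 in dry plants. ELIP1 and IAA29 had their larger step between numbers 1 and 2 in both, with -2.68 in wet and -0.96 in dry plants for ELIP1 and with 2.71 and 1.36 for IAA29. PRR5 had its larger step between numbers 2 and 3 in both, with 0.74 in wet and 1.19 in dry plants. GI had 0.395 and then 1.089 in wet plants, but 1.195 and 1.027 in dry plants, where the steps were nearer to each other. CCA1 had -1.93 and -1.504 in wet and -1.44 and -1.919 in dry plants. LHY had -1.84 and -1.711 in wet and -1.662 and -2.134 in dry plants.

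Over wet plants alone 4966 loci were called (24%), 2165 higher (10.4%) and 2801 lower (13.5%) in number 3. With array medians centred the split was 2708 higher and 2308 lower. Over dry plants alone 3114 loci were called (15%), 1413 higher (6.82%) and 1701 lower (8.21%). Without the Ler and Col wet pairs the wet counts were 1557 higher and 1934 lower. Across the 20728 loci the wet and the dry shifts, which rest on different arrays, had a Pearson r of 0.683 and a Spearman rho of 0.481, given as a description across loci that share arrays and are not independent.

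The difference between dry and wet shifts was itself past the threshold for 809 loci (3.9%), 392 with a higher shift in dry plants (1.89%) and 417 with a lower one (2.01%). When the Ler and Col wet pairs were left out these were 296 and 372. Among the measured members of the 4 clock lists only GRP7 and GRP8 were called. GRP7 rose by 4.07 in dry and by 2.87 in wet plants (limma, adjusted p of the difference 0.0351). GRP8 rose by 1.90 in dry and by 0.77 in wet plants (adjusted p = 0.0249). The GRP7 difference lost its call in 11 of 20 fits without 1 pair and had an adjusted p of 0.0529 without the Ler and Col wet pairs. For GRP8 the call was lost without the Ws-2 dry pair (0.0514).

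The same contrast can be read as a change in the drying response between the numbers: dry minus wet within number 1, against dry minus wet within number 3. The loci of this paragraph and the next were named as the 10 with the smallest p for this contrast. Fits that leave out 1 pair hold most of the same arrays, so calls kept there are no independent support. GBF6, a bZIP factor of sugar and amino acid metabolism, had a dry minus wet mean of -1.86 over the 10 accessions within number 1 and of 0.53 within number 3. The change of 2.38 had an adjusted p of 0.000292 (limma) and held in each of the 20 fits without 1 pair. The values of GBF6 cannot be told apart from those of AT4G34588, which differ by at most 0.000977 on any array. AT1G77670 had -0.96 within number 1 and 0.29 within number 3, AT5G65860 had -0.54 and 0.39, and AT5G58900 had -1.65 and -0.15. UBP17, a ubiquitin protease, had -0.30 and 0.14. In these loci the dry plants were below the wet ones within number 1, and nearer to them or above them within number 3.

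Other loci went the opposite way. CYP71B3, a cytochrome P450, had a dry minus wet mean of 0.97 within number 1 and of -0.23 within number 3. GLY3, a mitochondrial sulfur dioxygenase, had 0.98 and -0.30, CSY3, a peroxisomal citrate synthase, had 1.1 and 0.16, and AT3G03150 had 0.41 and -0.66. All 4 changes kept their call in the 20 fits without 1 pair and without the Ler and Col wet pairs. Those fits hold most of the arrays by which these loci were picked.

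From the lists, PIF4 was higher in dry plants by 1.74 within number 1 and by 0.55 within number 3, a change of -1.19 (limma, adjusted p = 0.0014). ELIP1 had -1.74 within number 1 and 0.05 within number 3, APR2 had -0.62 and 0.48, CYP79B2 had 1.3 and -0.07, and 4CL1 had 0.35 and -0.34. These 5 changes were called in all 20 fits without 1 pair, which share most of their arrays. Of the 30 genes on the dehydration list, 1 was called with a higher shift in dry plants and 5 with a lower one. Of all loci 1.89% were higher and 2.01% lower in this way. A few loci of that list were singled out after their values were seen. The abscisic acid receptor gene PYL4, the 1 on the higher side, had a shift of -1.16 in wet and of 1.05 in dry plants. Each shift was past the threshold, and the difference between them was past it too. The transcription factor genes RD26 and HB-12 also differed: RD26 rose by 1.48 in wet plants and had -0.46 in dry plants, while HB-12 fell by 1.33 in dry plants and had 0.05 in wet plants.

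**Figure D5:**
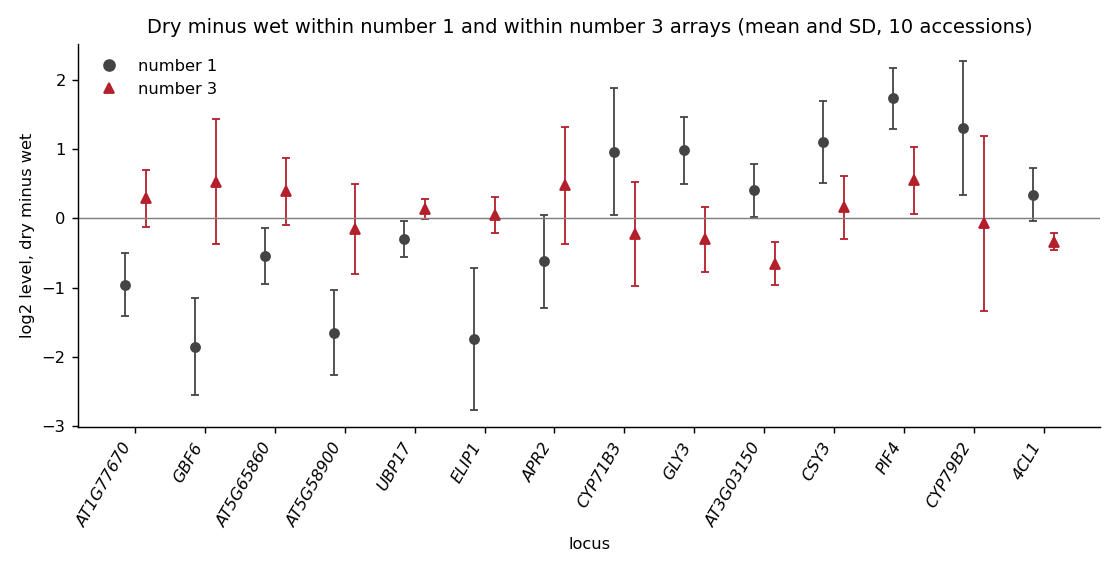
Dry minus wet in log2 level (vertical axis; mean and SD over 10 accessions) within number 1 (circles) and within number 3 (triangles) for 14 loci whose difference was past the threshold (horizontal axis). GBF6 goes from -1.86 to 0.53 and PIF4 from 1.74 to 0.55.

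Few differences among accessions were called. The test for differences among the 10 accessions called 1 locus of 20728 (0.00482%, limma moderated F), with 1014 loci at an unadjusted p under 0.05 (4.89%). That locus, AT3G13175, fell in HR-5 by 1.17 in wet and by 1.32 in dry plants, and had 0.89 and 0.63 in Col. Its adjusted p was 0.0425 and ranged from 0.027 to 0.368 when 1 pair was left out, with the call kept in 3 of 20 such fits. Each accession gave 1 wet and 1 dry pair to this test. The deviation of an accession's shift from the mean shift had a correlation between its wet and its dry pair, over all loci, from -0.0979 in Col to 0.257 in NFA-10.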

How the data were processed

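Rosette leaf RNA of 10 accessions under 2 watering levels was measured on 59 arrays. The values are log2 levels for 20728 loci, deposited by the authors as 1 table with 1 column per array; the log base was read from their range, 3.066 to 14.06. MAS5 and RMA were used by the authors, per the submitters' processing notes, which give neither versions nor order. How probes were assigned to loci, and on which platform, is not stated in the labels or the table. Values were used as deposited, with no column left out, and 0 arrays repeated another.

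Groups, pairs and numbers were taken from the titles. limma 3.58.1 in R 4.3.3 (lmFit, eBayes) was fitted to the 40 arrays of numbers 1 and 3 with the 20 accession and watering groups as a block, over both watering levels, for wet and dry apart, for their difference, and as a moderated F test among accessions. All 59 arrays entered the fit that placed number 2. Benjamini-Hochberg adjusted p-values, across every locus in the table, were called under 0.05. The pairing comes from the design, since both arrays of a pair share accession and watering; they are different plants.

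Loci were named through RefSeq's TAIR10.1 genes (20546 of 20728 matched); 14 loci with the same values as another were left out of lists and names. Gene lists (34, with 483 members listed and 441 measured and used) are given as counts and medians. The genes named were all measured members of 4 clock lists, the 12 largest differences each way among calls with 1 sign in all 20 pairs, the 10 smallest p for dry minus wet of the shift and the 10 among accessions, and up to 5 members of each other list by adjusted p; further list members were named after their values were seen. The comparison, members and lists were chosen with earlier results of these data known, clock gene levels among them. Scripts were tested on simulated data. Promoter motifs and sequences were not analysed here. Precision is limited by how many arrays there are, and dim loci (means under 5) may be at background. Alternatives covered scaling, dim loci, array weights, the variance prior, the block and left-out pairs.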

Additional observations from a re-analysis of the deposited data

Results flagged for a closer look

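Within the 10 wet or the 10 dry pairs, the gap between the most distant pair and its neighbour was set against the whole range of the pairs (Dixon's ratio), in 154 groups of values. In these data 18 passed, where chance alone flags about 1 group in 20. Of the 18, 7 are at loci that were named for small p among accessions, where a pair that stands apart is part of the choice, and many values share arrays, so 18 is no measure against that rate. The wet pair of Ler stood apart most often. Its number 3 minus number 1 differences were -5.22 for CCA1, -5.36 for LHY, -2.11 for LNK1, -3.13 for LNK3, 2.05 for PRR3, 2.76 for AT4G33980, -5.20 for AT5G11930 and 2.78 for AT5G44010, and its dry pair gave 1.89 for AT5G44010. The array Ler wet 3 also stood apart on the first principal component, at 53.32. The evening clock mean of that array was 6.47 and that of Col wet 3 was 5.88, against 5.24 for the next highest wet number 3 array, Bur-0, and up to 6.46 on dry number 3 arrays. Other pairs that stood apart were HR-5 dry for PRR3 (2.75), SQ-8 dry for GRP7 (5.56) and for AT3G15450 (0.43), Ts-1 wet and dry for AT2G47570 (1.09 and 1.28), Ts-1 dry for AT2G17990 (1.1), HR-5 wet for AT3G02250 (-1.47) and HR-5 dry for AT3G13175 (-1.32).

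For 22 results the shift from number 1 to number 3 differed between groups of plants by a test of the difference itself (limma, adjusted p under 0.05). The dry shift minus the wet shift, in log2 units, was 1.2 for GRP7, 1.13 for GRP8, 0.93 for HYH, 1.79 for ELIP1, -1.19 for PIF4, -1.38 for CYP79B2, 1.1 for APR2, -0.72 for JAZ3, 1.11 for CHS, -0.68 for 4CL1 and -1.14 for DFL1. It was 1.25 for AT1G77670, 2.38 for AT4G34588 and for GBF6, which cannot be told apart, -1.19 for CYP71B3, 0.93 for AT5G65860, -1.29 for GLY3, -1.06 for AT3G03150, 1.5 for AT5G58900, -0.95 for CSY3 and 0.43 for UBP17. Among accessions, AT3G13175 had an adjusted p of 0.0425. All of these are among the 174 loci named by the rule. The loci from AT1G77670 to UBP17 were named for their small p for dry minus wet, and AT3G13175 for its small p among accessions. A call at those loci is part of the choice, and AT4G34588 and GBF6 are counted apart. Of all loci 3.9% were called for dry minus wet, and 22 is no measure against that share. The calls for CHS, HYH and DFL1 were lost in 11, 7 and 13 of the 20 fits without 1 pair.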

How the results depend on the processing

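Counts of called loci for number 3 against number 1 stayed within 1.5 times of 5527 under the alternatives run: 5678 with array medians centred, 5609 after quantile normalization, 4811 without 8557 dim loci, 5505 with an intensity trend and robust prior, 5666 with array weights, 6296 with all 59 arrays, 5369 with wet and dry averaged into 10 pairs and, chosen after seeing the data, 4853 without the wet pairs of Ler and Col. With no replicate block, so that the pairs of a group were not tied, 4432 were called. The share of calls that were higher moved from 43.3% to 51.1% with array medians centred, and in wet plants from 43.6% to 54%. For dry minus wet of the shift 808 were called with medians centred (312 higher, 496 lower) and 941 with accession and number as a random block. Leaving out 1 pair gave 5112 to 5693 calls for number 3 against number 1 (4883 to 5423 without 1 accession), 4078 to 5176 in wet plants, 2569 to 3447 in dry plants, 432 to 1006 for dry minus wet and 0 to 5 among accessions. For dry minus wet the count left 1.5 times of 809 without Ws-2 dry (432), HR-5 dry (466), Ws-2 wet (501), SQ-8 dry (505), CIBC-17 wet (532) and KNOX-18 dry (539); fewer samples enter these fits. Among accessions 1 locus was called, against 0 with medians centred, 0 without dim loci, 0 with array weights, 2 after quantile normalization and 3 with the trend and robust prior. Number 3 against number 2 gave 1083 calls, and 1739 with array weights. The cause of these moves was not tested. The balance of calls turned to 2904 higher and 2774 lower with medians centred (2708 and 2308 in wet plants). For dry minus wet, 392 higher and 417 lower turned to 415 and 391 after quantile normalization, to 549 and 457 without SQ-8 wet and to 406 and 405 without CIBC-17 dry. Of the loci named by the rule, 0 changed sign while called under an alternative run. Of the 174 loci named by the rule, the calls of 75 of 3480 fits without 1 pair were lost and 10 gained. The weakest calls were those of AT1G69570, CHLD, LKP2, MBF1C, WRKY70 and AT5G44010, lost in 8 to 13 of 20 such fits. Without the Ler and Col wet pairs 10 calls were lost and 1 gained.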
